A study of Homo sapiens with 6 samples.

Results

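The genes described here encode 10 transcription factors of the epithelial-to-mesenchymal transition (EMT) and of melanoma phenotype switching: ZEB1, ZEB2, SNAI1, SNAI2, TWIST1, TWIST2, PRRX1, TCF4, ETS1 and GLIS3. They were taken by gene name from a count table of 58870 genes, of which 32338 had a read in at least 1 library. All 10 names were found. The libraries came from WM164, an established human melanoma line, transduced with a lentiviral vector and grown in RPMI medium with serum. In 3 libraries the cells overexpressed GFP, the control. In the other 3 they overexpressed T-MGM, a tethered dimer in which the melanoma isoform of MITF is followed by MAFG, joined by a flexible linker, so that both proteins form 1 chain. By the study's methods the dimer was driven by the EF1α promoter, and blasticidin was used to select cells carrying such vectors. The labels do not say whether the 3 libraries of a group were separate cultures, so p-values measure only the spread between these libraries, which may be technical.

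In epithelial tissue, ZEB, SNAIL and TWIST factors bind E-box sequences and repress junction genes such as CDH1, which loosens the contacts between cells. Melanocytes come from the neural crest and use these factors differently. ZEB2 and SNAI2 belong to the differentiated melanocyte, where they act alongside MITF, while ZEB1 and TWIST1 are associated with the invasive, dedifferentiated state. A shift from the first pair to the second is one description of phenotype switching in melanoma.

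The libraries held between 35057239 and 38738065 counts in the GFP group and between 44577774 and 59250663 in the T-MGM group, so every T-MGM library was the deeper. Pearson correlations of log2 counts between libraries were 0.991 to 0.994 within a group and 0.971 to 0.974 between groups. All 6 melanocyte-lineage markers were detected, with summed levels of 2746 to 2768 CPM (counts scaled to a common library total) in GFP and 2477 to 2541 in T-MGM. The genes carried by the construct gave no check of the labels. MAFG averaged 2458 ± 70.3 normalized counts with GFP and 2358 ± 34.9 with T-MGM (SD, n = 3 each, log2 fold change -0.06, DESeq2 adjusted p = 0.236), and MITF rose by 0.08 on the log2 scale (DESeq2 adjusted p = 4.8e-07). Directions below are therefore those between libraries labelled GFP and libraries labelled T-MGM.

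PRRX1 and TWIST1 were higher in the T-MGM libraries, by 85.7% and 29.5%, and ETS1 was higher by 1.06-fold. SNAI2, SNAI1, ZEB2 and ZEB1 were lower, SNAI2 by 32.7% and the other 3 by 12.0% to 13.4%. TCF4 and GLIS3 did not pass the test, and TWIST2 was at the detection floor of 3 counts. Of 9 factors tested, 7 passed DESeq2's test at an adjusted p of 0.05. Among all 19135 genes tested, 38.4% passed, 19.2% higher and 19.2% lower in T-MGM, against 3 and 4 of the 9 factors. With total-count scaling the split of 3675 higher and 3675 lower genes became 2926 and 4635, and on log2(TPM + 1) it was 1154 and 4360. The share that passes rises with read depth. Of 8616 tested genes averaging at least 500 normalized counts, 63.5% passed, and 8 of the 10 factors had at least 300 counts in every library. A share of 7 in 9 therefore stood nearer to that of well-read genes than to that of all genes. None of the 9 factors tested changed by more than 2-fold, whereas 4.63% of genes tested did. For 7 of the 9 factors tested the ranges of the 2 groups were separate, as they were for 46.8% of genes tested. The median log2 fold change of the 9 was 0.09, against -0.00273 for all genes tested.

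**Figure D1:**
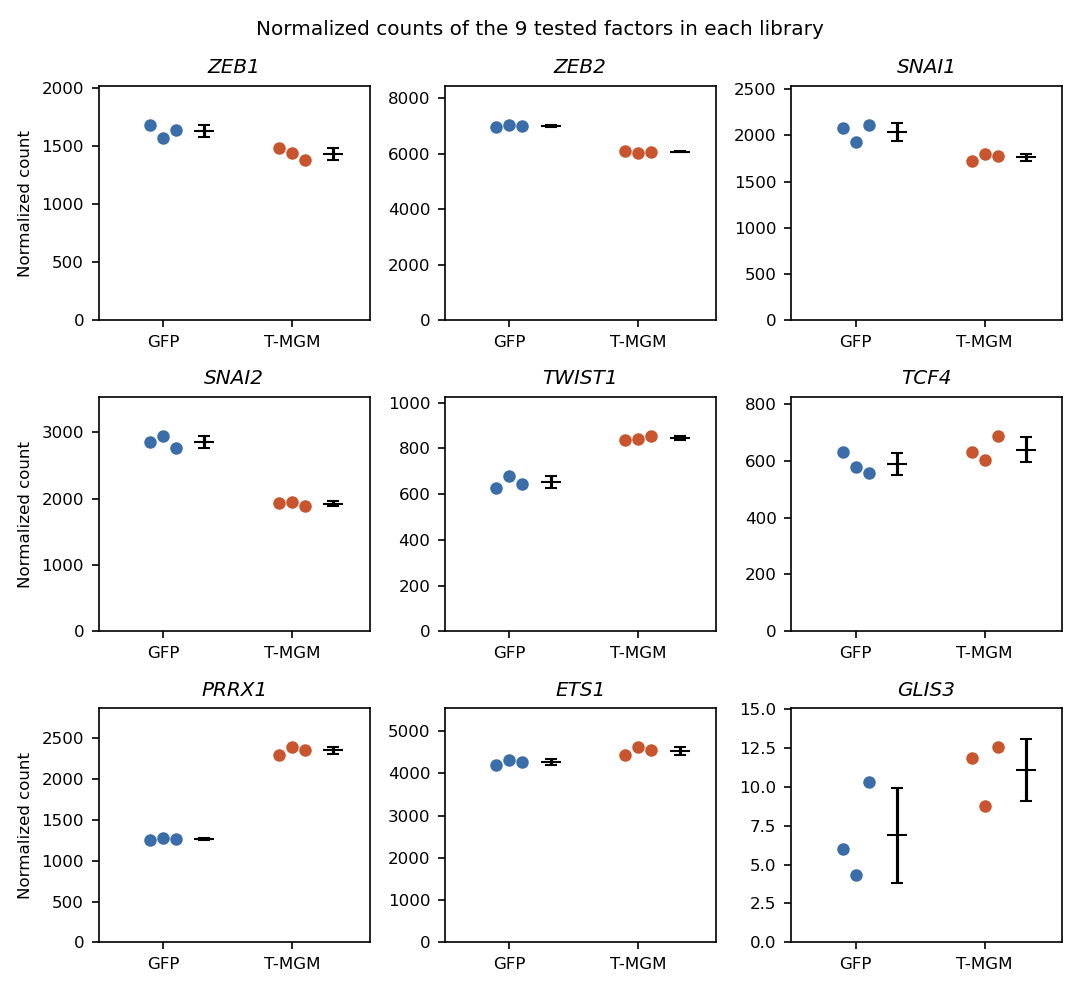
Normalized counts (raw counts divided by a library's size factor) of the 9 tested factors, 1 panel a gene, each vertical axis starting at 0. Points are libraries, and the bars beside them show the mean ± SD of 3 libraries. PRRX1 rose from 1264 to 2347 and SNAI2 fell from 2852 to 1922, while the groups overlapped for TCF4 and GLIS3.

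PRRX1 encodes a paired-related homeobox factor of limb and craniofacial mesenchyme that promotes migration in several cancers. It lies on the plus strand at chr1:170662728-170739421 (GRCh38). GFP libraries gave normalized counts of 1258, 1273 and 1260, and T-MGM libraries gave 2296, 2388 and 2356. The lowest T-MGM library was thus far above the highest GFP library, and the 3 GFP values nearly coincided. The group means were 1264 ± 8.37 and 2347 ± 46.8 (SD, n = 3 each). The log2 fold change was 0.89 (SE 0.05, adjusted p = 1.65e-85 in DESeq2), a 1.86-fold rise with a 95% interval of 1.75 to 1.97. Among the 3675 genes that passed in this direction, 696 (18.9%) rose more. With offsets for GC content and gene length the log2 fold change became 1.01, just over 2-fold.

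Annotated genes overlapping the factors numbered 23, over 8 of the 10 loci, and 5 of them exceeded 3 counts in some library. The gene Z97200.1 lies on the same strand within the PRRX1 locus, with 45, 69 and 71 counts in GFP libraries, against 118, 121 and 166 in T-MGM. Its log2 fold change was 0.73 (SE 0.21, adjusted p = 0.00244 in DESeq2), so the 2 overlapping annotations moved in the same direction. Reads from both cannot be assigned with certainty, although those of Z97200.1 were few beside those of PRRX1. By Pearson's r of log2 normalized counts over the 6 libraries, the genes most like PRRX1 among 11651 with a mean of at least 100 were HIST1H3B (0.99997), a replication-dependent histone H3 gene, PLOD2 (0.99988), a collagen lysyl hydroxylase, and SMARCD3 (0.99984), a subunit of SWI/SNF chromatin remodellers. With 2 groups of 3, such values mainly say that a gene differs cleanly between the groups, and the log2 fold changes of the 3 were 0.77, 0.72 and 1.94.

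PRRX1 is also expressed by fibroblasts, so their markers were measured beside it. The summed level of 8 fibroblast markers was 9.27 to 9.99 CPM in GFP and 17.0 to 18.8 CPM in T-MGM. LUM, a matrix proteoglycan, made up most of it with 259, 263 and 277 counts in GFP libraries, against 545, 513 and 745 in T-MGM. Raw counts of PDGFRA, a growth factor receptor, were 51, 62 and 32 across GFP libraries, against 172, 157 and 211 across T-MGM. COL1A1 had 16, 29 and 21 counts in GFP libraries, against 64, 58 and 82 in T-MGM. PDGFRB had 11, 15 and 2, against 16, 25 and 58. The other markers showed no clear rise: DCN, COL1A2 and FAP had at most 10, 5 and 9 counts in any library. The fibrillar collagen COL3A1 did not exceed the floor of 3 counts in any library. Whether these markers had a part in the rise of PRRX1 and TWIST1 was not tested, and more RNA per cell cannot be told apart from more cells of a type.

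PRRX1 and ZEB2, the factor with the most reads, each have 1 start in the RefSeq promoter table used, which covers 6 of the 10 factors with 22 starts. Both promoters are given 5′ to 3′ on the gene's strand, from 250 bases before the start to 50 after it, at chr1:170663881-170664180 (plus strand) and chr2:144520070-144520369 (minus strand) of GRCh38.p14. Capitals mark matches, on either strand, to CACGTG and CATGTG (E-boxes read by MITF), TGCTGA (the core of the MAF recognition element) and CACCTG (the E-box read by ZEB and SNAIL).
PRRX1: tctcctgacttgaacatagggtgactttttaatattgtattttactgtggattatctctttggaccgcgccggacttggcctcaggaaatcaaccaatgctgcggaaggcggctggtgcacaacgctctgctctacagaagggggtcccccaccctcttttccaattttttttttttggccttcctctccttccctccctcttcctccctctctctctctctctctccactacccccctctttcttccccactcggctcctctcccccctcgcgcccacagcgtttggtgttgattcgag
ZEB2: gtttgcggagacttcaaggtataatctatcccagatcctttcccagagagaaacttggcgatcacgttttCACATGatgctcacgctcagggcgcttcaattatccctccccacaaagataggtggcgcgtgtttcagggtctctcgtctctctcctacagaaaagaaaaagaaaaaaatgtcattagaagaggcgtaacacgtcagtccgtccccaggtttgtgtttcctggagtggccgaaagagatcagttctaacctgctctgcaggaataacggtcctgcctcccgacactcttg
The PRRX1 promoter held none of these letters. The ZEB2 promoter held one CACATG, which is CATGTG on the other strand, starting at position 71 of the sequence. Across 35116 RefSeq promoters of this length, 7.26% held CACGTG, 11.1% CATGTG, 17.3% TGCTGA and 20.6% CACCTG. Of the 22 starts of these factors, 1, 3, 5 and 2 held the respective motif, and several of the 22 belong to the same gene.

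TWIST1 encodes a basic helix-loop-helix repressor of the mesoderm and neural crest, at chr7:19020991-19117636 on the minus strand. GFP libraries gave normalized counts of 628, 681 and 645, and T-MGM libraries gave 838, 841 and 854. All T-MGM libraries were above all GFP libraries. The means were 652 ± 26.9 and 844 ± 8.24 (SD, n = 3 each), which is a log2 fold change of 0.37 (SE 0.07, adjusted p = 5.4e-07 in DESeq2) and a rise of 29.5% (95% interval 1.18-fold to 1.42-fold). Among genes that passed in this direction, 45.4% rose more. On log2(TPM + 1) without a filter on low values the difference was 0.17 (limma adjusted p = 0.0645), so the call ended there. Its paralogue TWIST2, at chr2:238848032-238910534, had 1 count in the first GFP library and 0 in the other 5, so no fold change was given.

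TWIST proteins bind DNA as dimers with E proteins, such as TCF4 and TCF3, which ID proteins sequester. TCF4 lies at chr18:55222185-55664787 on the minus strand. GFP libraries gave normalized counts of 631, 577 and 555, and T-MGM libraries gave 629, 601 and 686. Only the third T-MGM library exceeded the first GFP library, so the groups overlapped. The log2 fold change was 0.12 (SE 0.08, adjusted p = 0.258 in DESeq2), with a 95% interval of 0.974-fold to 1.22-fold. With GC and length offsets it was 0.27 (DESeq2 adjusted p = 0.00501), and on the log2(TPM + 1) scale it was -0.01.

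Around TCF4, E proteins and their inhibitors comprised 6 other genes, of which 3 rose, 1 fell and 2 did not pass, with a median log2 fold change of 0.34 that was 0.14 on log2(TPM + 1). ID1 rose from a mean of 677 ± 49.3 normalized counts to 1407 ± 66.1 (SD, n = 3 each), which is a log2 fold change of 1.06 (SE 0.07, adjusted p = 1.4e-56 in DESeq2). ID3 rose by 1.01 on the log2 scale (SE 0.05, adjusted p = 3.38e-85 in DESeq2). TCF3, an E protein itself, fell by 0.23 (SE 0.04, adjusted p = 2.41e-10 in DESeq2). The third gene that rose was the inhibitor ID2, by 0.66 (SE 0.10). Those that did not pass were the E protein TCF12 (log2 fold change 0.02, DESeq2 adjusted p = 0.644) and the inhibitor ID4 (-0.10, DESeq2 adjusted p = 0.136). The direction was thus not shared by all inhibitors or all E proteins. Over all genes tested 19.2% were higher and 19.2% lower.

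SNAI2 encodes the zinc-finger repressor SLUG, which is required for melanoblast development. The gene lies at chr8:48917598-48921740 on the minus strand. Normalized counts in GFP libraries were 2858, 2941 and 2758, against T-MGM values of 1930, 1954 and 1883. The ranges were well apart. The means were 2852 ± 91.2 and 1922 ± 36.0 (SD, n = 3 each), and the log2 fold change was -0.57 (SE 0.04, adjusted p = 1.31e-45 in DESeq2). Among the 3675 genes that passed in this direction, 507 (13.8%) fell more.

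SNAI1 encodes SNAIL, the founding member of the family and a direct repressor of CDH1. It lies at chr20:49982980-49988886 on the plus strand. Normalized counts in GFP libraries were 2076, 1928 and 2110, against T-MGM values of 1722, 1797 and 1772. The lowest GFP library still exceeded the highest T-MGM library. SNAI1 had a log2 fold change of -0.21 (SE 0.05, adjusted p = 2.28e-05 in DESeq2), from 2038 ± 96.4 to 1763 ± 38.5 (SD, n = 3 each). The SNAI1 to SNAI2 ratio of counts was 0.726, 0.656 and 0.765 across GFP libraries, against 0.892, 0.920 and 0.941 across T-MGM. Every T-MGM ratio exceeded every GFP ratio, a log2 difference of 0.36 (SE 0.07). The exact two-sided permutation test gave p = 0.1, the smallest 3 against 3 allows, and 0.2 after adjustment over the 2 within-family ratios examined. With GC and length offsets the log2 fold changes were -0.35 for SNAI1 and -0.47 for SNAI2, so these genes lay closer together.

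ZEB2, a zinc-finger homeobox repressor that melanocytes express, lies at chr2:144364364-144521057 on the minus strand. Normalized counts in GFP libraries were 6955, 7041 and 7009, against T-MGM values of 6104, 6051 and 6084. Replicates agreed closely, and the groups were clearly apart. Its log2 fold change was -0.20 (SE 0.02, adjusted p = 1.83e-17 in DESeq2), from 7002 ± 43.3 to 6080 ± 26.8 (SD, n = 3 each). With GC and length offsets the fall shrank to 0.08 on the log2 scale and still passed.

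ZEB1, its paralogue of the invasive state, lies at chr10:31318495-31529814 on the plus strand. Normalized counts in GFP libraries were 1681, 1573 and 1636, against T-MGM values of 1483, 1439 and 1381. Again the groups did not overlap. ZEB1 had a log2 fold change of -0.19 (SE 0.05, adjusted p = 0.000771 in DESeq2), from 1630 ± 54.2 to 1434 ± 51.5 (SD, n = 3 each). With GC and length offsets it was -0.05 (DESeq2 adjusted p = 0.533), so the call did not hold there. The 2 ZEB genes fell by like amounts, and the ZEB1 to ZEB2 count ratio was 0.242, 0.223 and 0.233 across GFP libraries, against 0.243, 0.238 and 0.227 across T-MGM. Those ratios overlapped, with a log2 difference of 0.02 (SE 0.04, exact two-sided permutation p = 0.7 and 0.7 adjusted over the 2 ratios). The antisense gene ZEB1-AS1 had 84, 89 and 92 counts in GFP libraries, against 130, 105 and 123 in T-MGM, a log2 fold change of 0.04 (DESeq2 adjusted p = 0.904).

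Set against each other per length, TWIST1 gained on both melanocyte factors. The ratio of TWIST1 to ZEB2 in TPM, the length-scaled transcript level, was 0.460, 0.461 and 0.496 across GFP libraries, against 0.648, 0.673 and 0.678 across T-MGM. That of TWIST1 to SNAI2 was 0.508, 0.501 and 0.588 across GFP libraries, against 0.967, 0.928 and 0.995 across T-MGM. For both ratios every T-MGM library lay above every GFP library. These ratios pair genes already seen to move in opposite directions and were therefore not tested. With GC and length offsets the log2 fold changes were 0.24 for TWIST1, -0.08 for ZEB2 and -0.47 for SNAI2. Each was nearer to no change than in the fit reported here. ZEB1 did not follow TWIST1, since it fell together with ZEB2.

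ETS1, a winged helix-turn-helix factor of the RAS pathway and of the neural crest, lies at chr11:128458761-128587558 on the minus strand. Normalized counts in GFP libraries were 4188, 4323 and 4278, against T-MGM values of 4436, 4622 and 4549. The groups did not overlap, though the gap was small. The log2 fold change was 0.09 (SE 0.03, adjusted p = 0.00703 in DESeq2), and 95.9% of genes that passed in this direction rose more. The call ended with total-count scaling (log2 fold change 0.04, DESeq2 adjusted p = 0.381) and without the first GFP library (0.08, DESeq2 adjusted p = 0.0651), and the sign turned on the TPM scale.

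GLIS3, a GLI-similar zinc-finger factor, lies at chr9:3824127-4348392 on the minus strand. It had only 5, 4 and 9 raw counts in GFP and 13, 9 and 17 in T-MGM. Normalized counts overlapped between the groups. The log2 fold change of 0.70 had an SE of 0.70 (DESeq2 adjusted p = 0.496), and its 95% interval ran from 0.623-fold to 4.21-fold, so a change of the size seen was not detectable from so few reads.

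**Figure D2:**
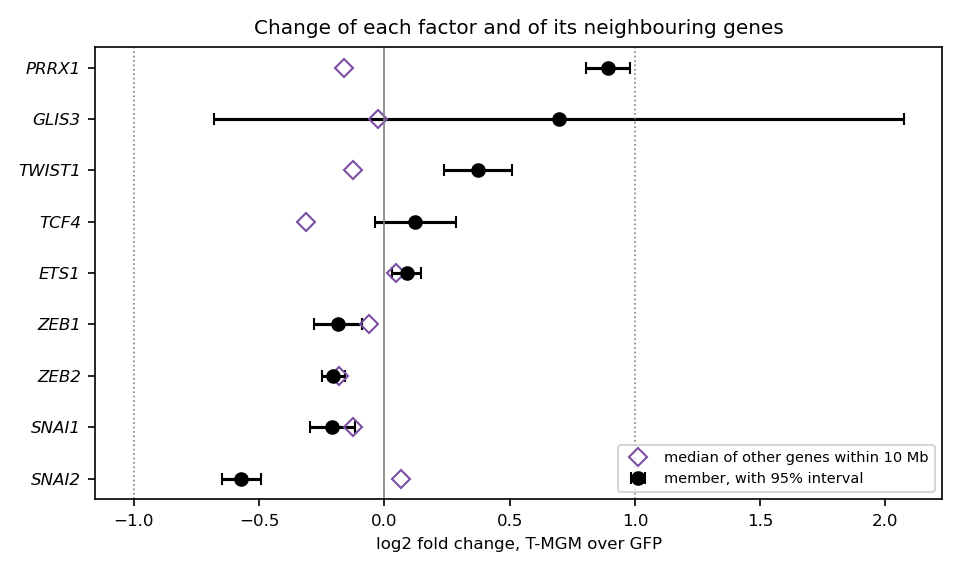
Log2 fold change of T-MGM over GFP for the 9 tested factors. Filled circles with bars are DESeq2 estimates with 95% intervals, open diamonds the median of other genes within 10 Mb, and dotted lines 2-fold. PRRX1 (0.89), TWIST1 (0.37) and SNAI2 (-0.57) stood away from their neighbours, while ZEB2 (-0.20) lay beside its own (-0.18).

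Genes around each factor on the chromosome were set beside it as a description, and whether a region changed together was not tested. They were all other genes within 10 Mb that averaged at least 50 normalized counts. The 93 neighbours of PRRX1 had a median log2 fold change of -0.16, and 97.8% of them lay below PRRX1. The 53 neighbours of TWIST1 had a median of -0.13, with 94.3% below TWIST1, and none of the 43 neighbours of SNAI2 (median 0.07) fell as far as SNAI2. By contrast, the 33 neighbours of ZEB2 had a median of -0.18 and 48.5% of them lay below ZEB2. The 97 neighbours of SNAI1 had a median of -0.12, the 50 of ZEB1 -0.06 and the 77 of ETS1 0.05. Of these neighbours 39.2% lay below SNAI1, 34.0% below ZEB1 and 55.8% below ETS1. Within 5 Mb the medians were -0.07 for SNAI1, -0.10 for ZEB1 and -0.08 for TWIST1. The 50 neighbours of TCF4 had the lowest median of these regions, at -0.31, and 92.0% of them lay below TCF4. With GC and length offsets the 10 Mb medians shrank to -0.09 around ZEB2 and -0.22 around TCF4. Around SNAI1 and SNAI2 they were -0.13 and 0.12.

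**Figure D3:**
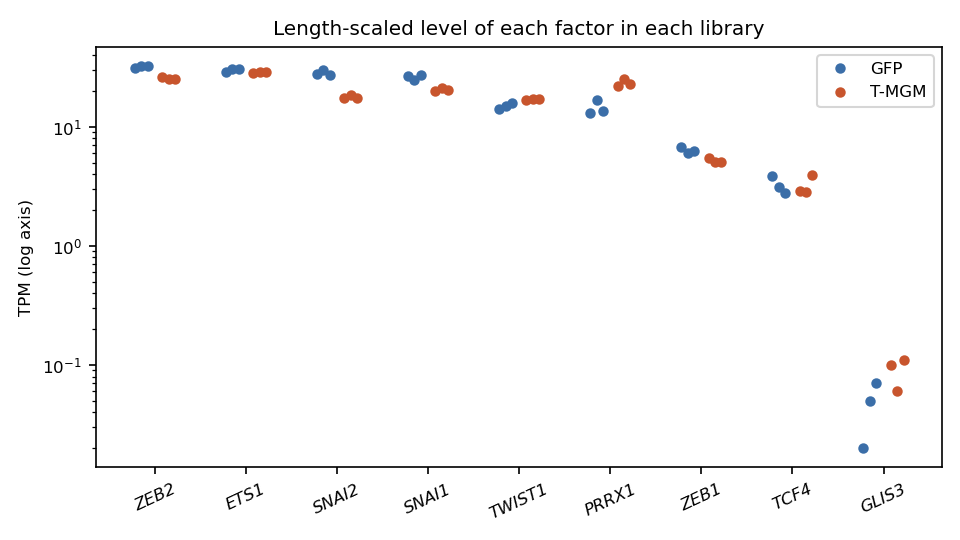
Level of the 9 tested factors in TPM, which scales reads by transcript length, on a log axis. Each point is a library, 3 a group. ZEB2 had the highest mean in GFP (31.9) and ETS1 the highest in T-MGM (28.8), while GLIS3 stayed at or under 0.11 in every library.

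Per length, the order of mean TPM in the GFP libraries was ZEB2 (31.9 ± 0.79), ETS1 (29.99 ± 0.98), SNAI2 (28.4 ± 1.36), SNAI1 (26.2 ± 1.19), TWIST1 (15.1 ± 0.87), PRRX1 (14.6 ± 2.08), ZEB1 (6.38 ± 0.40) and TCF4 (3.25 ± 0.56) (SD, n = 3 each). The ranges of ETS1 and SNAI2, of SNAI2 and SNAI1, and of TWIST1 and PRRX1 overlapped, so those neighbours in the order were not told apart. In T-MGM the order was ETS1 (28.8 ± 0.21), ZEB2 (25.7 ± 0.46), PRRX1 (23.4 ± 1.51), SNAI1 (20.5 ± 0.56), SNAI2 (17.8 ± 0.56), TWIST1 (17.1 ± 0.13), ZEB1 (5.24 ± 0.23) and TCF4 (3.23 ± 0.62) (SD, n = 3 each). No neighbours in that order overlapped. PRRX1 thus stood below SNAI1 and SNAI2 in every GFP library and above both in every T-MGM library. A single entry, the structural RNA RN7SL1, took 134141 to 138057 TPM in GFP and 158142 to 161371 in T-MGM. As the TPM of a library share a fixed total, less of it was left for other genes in T-MGM. How far this accounts for differences between TPM and counts was not tested. Changes are read from counts.

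**Figure D4:**
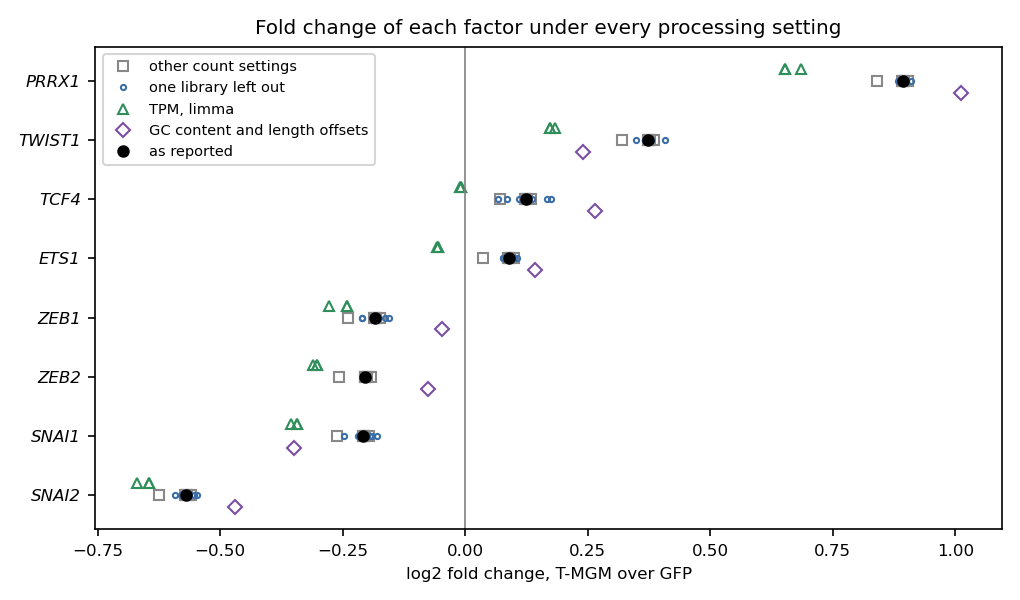
Log2 fold change of T-MGM over GFP for 8 factors under each processing setting, by kind of setting. Filled circles are the values as reported, and the vertical line is no change. PRRX1, TWIST1, ZEB1, ZEB2, SNAI1 and SNAI2 stayed on one side of the line, and TCF4 and ETS1 crossed it in the TPM fits.

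The repressors act through partner enzymes. Of 9 corepressor genes of ZEB and SNAIL, 4 fell, 5 did not pass and 0 rose at a DESeq2 adjusted p of 0.05 (2 rose at an unadjusted p of 0.05). All 9 averaged over 500 normalized counts, a depth at which 63.5% of genes tested passed. A share of 4 in 9 was therefore not above that of well-read genes. With edgeR 0 rose, and 1 rose with TMM size factors, without the first T-MGM library and with GC and length offsets. The median log2 fold change was -0.02 against -0.00273 for all genes tested, and -0.23 on log2(TPM + 1). Among them, CTBP2, a corepressor that ZEB recruits, fell by 0.34 on the log2 scale (SE 0.03, adjusted p = 2.1e-29 in DESeq2). CTBP1, of the same list, did not pass, with a log2 fold change of 0.07 (SE 0.03, adjusted p = 0.11 in DESeq2). HDAC1, a histone deacetylase, fell by 0.17 (SE 0.02), and EZH2, a histone H3 methyltransferase, fell by 0.17 (SE 0.04). With GC and length offsets EZH2 stood at -0.06 (DESeq2 adjusted p = 0.237), so its call ended there.

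Junction genes are the classical targets, and many were barely expressed in these cells. CDH1 had at most 3 counts in any library, so repression of it could not be read. Of 16 epithelial junction genes, 8 were tested, of which 4 rose and 4 did not pass, with a median of 0.68. Only 3 of the 8 averaged at least 50 normalized counts, namely KRT8, KRT18 and TJP1. TJP1, a tight-junction protein, did not pass (log2 fold change -0.03, SE 0.02, adjusted p = 0.4 in DESeq2). The median therefore rests largely on genes with few reads. On log2(TPM + 1) the median was 0.17 with a filter and 0.03 without one. The shares over all genes tested were 19.2% higher and 19.2% lower. KRT8 and KRT18, keratins of simple epithelia, rose by 0.83 (SE 0.08) and 0.32 (SE 0.02). DSP, a desmosome protein, was at 15.8 ± 8.15 normalized counts with GFP and 42.9 ± 3.34 in T-MGM (SD, n = 3 each), which is a log2 fold change of 1.45 (SE 0.42, adjusted p = 0.00192 in DESeq2) that rests on few reads. Without a filter on log2(TPM + 1), where the pseudocount exceeds its level, DSP differed by 0.07 (limma adjusted p = 0.0633) and its call ended. Among 11 epithelial-state factors 4 were tested and 0 passed under DESeq2 with the settings reported here, with 1 lower at an unadjusted p of 0.05. With edgeR 0 passed, while 1 was lower with total-count scaling, without the first GFP library and in both filtered TPM fits.

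Mesenchymal effector genes encode matrix, adhesion and cytoskeletal proteins. Of 25 such genes, 22 were tested, of which 12 rose, 4 fell and 6 did not pass, and the median was 0.46. On log2(TPM + 1) it was 0.30 with a filter and 0.08 without one. Among all genes tested 19.2% rose and 19.2% fell, and 63.5% of those averaging at least 500 normalized counts passed. SERPINE2, a secreted protease inhibitor, rose by 0.47 (SE 0.01), CD44, a hyaluronan receptor, by 0.64 (SE 0.02) and VIM, the mesenchymal intermediate filament, by 0.45 (SE 0.01). VIM averaged 296586 ± 2111 normalized counts with GFP and 406540 ± 725 in T-MGM (SD, n = 3 each), so its groups were far apart. The 4 genes of this list that fell were S100A4 (-0.65), MMP14 (-0.19), CDH2 (-0.08) and SPARC (-0.05). In all, 4 genes of this list exceeded 2-fold, and 0 of the 9 tested factors did. The summed fibroblast marker level given above was also higher in T-MGM. This list holds the collagens COL1A1, COL1A2 and COL3A1 in common with those markers. Of these, COL1A2 and COL3A1 had at most 5 counts in any library. The part of the fibroblast markers was not tested.

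Of 19 other mesenchymal-state factors 15 were tested, of which 7 rose, 3 fell and 5 did not pass, with a median of 0.42 that was 0.14 on log2(TPM + 1) with a filter and 0.06 without one. FOSL1, an AP-1 subunit of the invasive state, rose by 0.66 (SE 0.02, adjusted p = 1.17e-234 in DESeq2). RUNX1, a runt-domain factor, rose by 0.68 (SE 0.02). HMGA2, an architectural chromatin protein that can act upstream of SNAIL and TWIST, rose by 0.28 (SE 0.02). The 3 that fell were SOX4 (-0.22), ETS2 (-0.19) and TEAD1 (-0.08). Beside this list, 19.2% of all genes tested rose and 19.2% fell.

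The TGF-beta pathway, a main inducer of these factors, was represented by 12 genes, of which 4 rose, 6 fell and 2 did not pass, with a median of -0.10. The median was -0.16 with total-count scaling and -0.03 with GC and length offsets. For comparison, 19.2% of all genes tested rose and 19.2% fell, and 63.5% of those averaging at least 500 normalized counts passed. SMAD3 and SMAD2, the signal-carrying SMADs, fell by 0.56 (SE 0.03) and 0.30 (SE 0.03). The receptor gene TGFBR2 rose by 0.45 (SE 0.04). TGFBR2 and these SMAD genes thus moved in opposite directions.

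Of 10 melanocytic-state genes 9 were tested, of which 5 rose, 3 fell and 1 did not pass, with a median of 0.05 that was -0.00251 with total-count scaling. On log2(TPM + 1) 1 of them rose. As a background to this list and the next, 19.2% of all genes tested rose and 19.2% fell. Of genes averaging at least 500 normalized counts, 63.5% passed. DCT, an enzyme of melanin synthesis, fell by 2.49 on the log2 scale (SE 0.03), and MLANA, a melanosome protein, fell by 0.68 (SE 0.03). LEF1, a WNT effector of differentiated cells, rose by 0.46 (SE 0.01). The others that rose were PMEL (0.05), MITF (0.08), which the construct carries, SOX10 (0.11) and TFAP2A (0.23). TYR was the third that fell (-0.35). Of 6 dedifferentiated-state genes 5 were tested, of which 2 rose, 1 fell and 2 did not pass. Their median of 0.15 was -0.09 without the second T-MGM library and -0.28 without independent filtering. It was 0.46 with edgeR, which tested 4 of the genes, and 0.60 on log2(TPM + 1) with a filter, which tested 3. AXL, a receptor tyrosine kinase, rose by 2.26 (SE 0.09), from 236 ± 13.4 normalized counts to 1126 ± 80.4 (SD, n = 3 each). NGFR, the neural crest neurotrophin receptor, rose by 0.77 (SE 0.03), while the secreted WNT ligand WNT5A fell by 2.50 (SE 0.12).

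**Figure D5:**
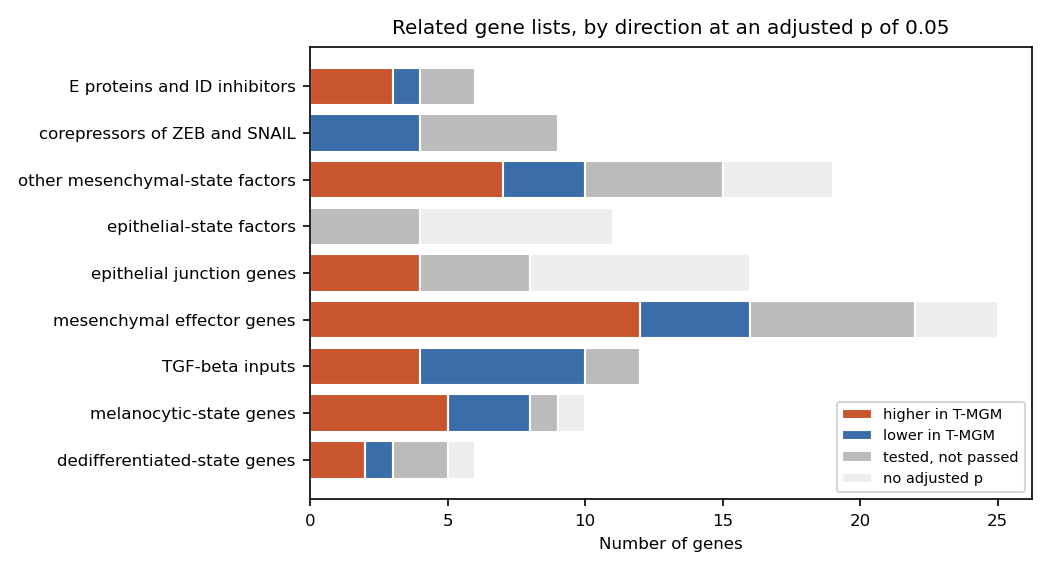
Number of genes in each related list that were higher or lower in T-MGM at a DESeq2 adjusted p of 0.05, tested without passing, or without an adjusted p. The bars count genes and start at 0. Mesenchymal effector genes had 12 higher and 4 lower of 25, and corepressors 0 higher and 4 lower of 9. Among all genes tested, 19.2% were higher and 19.2% lower.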

How the data were processed

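RNA-seq was carried out on 6 libraries of WM164 cells, 3 with GFP and 3 with T-MGM. The authors deposited raw counts per gene for all 6 libraries, made with featureCounts per the methods, and TPM values per gene. The submitters' processing notes name cutadapt 1.8.1, STAR 2.7.7a, RSEM 1.3.0 and the build GRCh38. The annotation release was not given in the sources used here. The labels name a kit for unstranded libraries and the methods a strand-specific one, so reads of a gene and its antisense partner may not be told apart.

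Counts were tested with DESeq2 1.42.0 in R 4.3.3 (group as the only term, median-of-ratios size factors, two-sided Wald test, Benjamini-Hochberg adjustment over all genes). Calls were made at an adjusted p of 0.05, and a second rule also required 2-fold. Alternatives were edgeR 4.0.16, limma 3.58.1 on log2(TPM + 1) or log2(TPM + 0.1) with a TPM minimum of 0.5 in 3 libraries or none, TMM or total-count scaling, other low-count filters, a replicate block, each library left out, GC and length offsets, and a 5 Mb window for neighbouring genes. Scripts were tested on simulated data. Positions came from GENCODE 44, in which 99.3% of identifiers matched. Deviations of libraries sharing a replicate number correlated at -0.01, -0.06 and 0.03, and nothing in the labels pairs them.

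The members and gene lists were chosen with earlier results of these data known. Named genes were all 10 factors, up to 3 genes a list with the largest absolute Wald statistic among those that passed, and the 3 genes most like PRRX1. ZEB1-AS1, Z97200.1, RN7SL1, CDH1, TJP1, CTBP1 and the marker genes lay outside that rule. So did ID2, ID4, TCF12, S100A4, MMP14, CDH2, SPARC, SOX4, ETS2, TEAD1 and TFAP2A. All of these were chosen after their values were seen. One TGF-beta gene was not analysed here. Endothelial markers summed to 0.542 to 0.981 CPM in GFP and 0.793 to 1.17 in T-MGM, leukocyte markers to 1.50 to 2.11 and 0.494 to 0.902, and epithelial markers to at most 0.143.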

Additional observations from a re-analysis of the deposited data

How the results depend on the processing

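PRRX1, SNAI1, SNAI2 and ZEB2 kept their direction and call in all 16 alternatives, with log2 fold changes of 0.65 to 1.01, -0.36 to -0.18, -0.67 to -0.47 and -0.31 to -0.08. ZEB1 kept its direction and lost its call with GC and length offsets (-0.05) and on log2(TPM + 1) without a filter (-0.24, limma adjusted p = 0.0606), and TWIST1 lost its call in the latter fit. GLIS3 passed in none of 13. TCF4 turned to -0.01 and ETS1 to -0.06 in the TPM fits (-0.008444, -0.0112 and -0.008444 for TCF4, -0.05538, -0.05706 and -0.05538 for ETS1, with log2(TPM + 1), log2(TPM + 0.1) and no filter). Those fits moved the median of genes averaging at least 50 normalized counts to -0.13, -0.15 and -0.13, against -0.01 as reported here. The cause of these sign turns and lost calls was not tested.

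Without a filter, log2(TPM + 1) gave 4295 genes changed, against 7350, and 4 factors, against 7. Genes over 2-fold numbered 133, 369 and 126 in the 3 TPM fits, against 885. These fits differ from the reported one in unit, tool, pseudocount and filter, and the cause was not tested. PRRX1 was the 1 factor over 2-fold with GC and length offsets. Total-count scaling gave 2926 higher and 4635 lower genes, and log2(TPM + 1) gave 1154 and 4360, against 3675 and 3675. In the TPM fits with a filter 7 corepressor genes fell, against 4. Higher calls numbered 2 for TGF-beta genes, against 4, 2 for junction genes, against 4, and 1 for melanocytic-state genes, against 5, in all 3 TPM fits. Lower mesenchymal effectors numbered 2 with GC and length offsets, against 4. The median of melanocytic-state genes turned negative with total-count scaling, offsets and TPM.

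The replicate numbers do not pair the libraries. A replicate block gave 6099 genes changed, 735 over 2-fold, and 7 factors, and changed no factor's call. Leaving out each library in turn gave 6461 to 6623 genes. GLIS3, with at most 17 counts in a library, and TWIST2, with 1 in all, gave no precise change.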
